A study of Mus musculus with 2 samples.

Results

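The Hox genes are the homeobox transcription factor genes of the Hoxa, Hoxb, Hoxc and Hoxd clusters, and they were examined here in RNA from embryonic mouse midbrain. Every measured gene whose identifier carried a protein-coding Hoxa, Hoxb, Hoxc or Hoxd symbol in the GENCODE annotation was taken, which gave 39 Hox genes among 43346 measured genes, of which 21474 were protein-coding. The study sequenced total RNA from the midbrain of healthy B6NCrl embryos at 12.5 days, with males and females pooled. Replicate 2 was made from 88 embryos and replicate 1 from 120 embryos, and both libraries started from 10 ng of RNA longer than 200 nt. These 2 libraries form 1 group, with no mutation, treatment or second tissue, so the comparisons are between genes within the tissue and between the 2 pools.

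Hox genes lie in the order of their paralogue numbers along each cluster, and during development they are switched on in that order. The low-numbered genes reach furthest forward, into the hindbrain, and the high-numbered genes act in the trunk, tail, limbs and genital bud. The midbrain and forebrain lie in front of the Hox territory, where Polycomb complexes keep the clusters silent and Otx2 marks the tissue instead. Retinoic acid, Cdx proteins and hindbrain factors such as Egr2 open Hox genes further back in the neural tube.

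The Hox genes were almost silent in both midbrain pools. None of the 39 reached 1 TPM (a level per transcript length, scaled so that the transcripts of each library have the same sum) in either library, whereas 60.6% of all protein-coding genes were at 1 TPM or more in both libraries and 37.6% were under 1 TPM in both. No estimated count was assigned to 20 of the 39 Hox genes (51.3%) in either library, a state found for 20.1% of protein-coding genes. The upper end of the deposited TPM interval was also under 1 TPM for 39 of 39 Hox genes in both libraries, at most 0.948 TPM in replicate 2 and 0.846 TPM in replicate 1. In such bulk RNA, few cells with Hox RNA and little Hox RNA per cell cannot be told apart.

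The midbrain origin of the RNA was checked with genes outside the clusters. The 9 midbrain and isthmus markers were all at 1 TPM or more in both libraries, led by Otx2, the transcription factor of forebrain and midbrain, at 141.8 TPM in replicate 2, against 146.6 TPM in replicate 1, and followed by Cnpy1 at 121.6 and 77.7 TPM, Dmbx1 at 15.1 and 14.7 TPM and Wnt1 at 7.17 and 10.55 TPM in replicates 2 and 1. The libraries held 36082643 gene counts in replicate 2 and 28212923 in replicate 1. Across the 18939 genes with at least 10 summed counts they differed by more than sampling noise (the chi-square averaged 8.74 per gene). Both were counted as replicates because they were made from separate pools of embryos.

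Summed over the 39 genes, Hox RNA made up 86.6 estimated counts in replicate 2 and 65.12 in replicate 1. That is a share of 2.40 CPM (counts over all gene counts of the library, on the same scale but not per length) in replicate 2 and 2.31 CPM in replicate 1. The summed level was 1.98 TPM in replicate 2, against 1.90 TPM in replicate 1, with a mean of 1.94 ± 0.0566 TPM (SD, n = 2). With the deposited posterior mean TPM in place of TPM, the mean was 5.89 TPM. The ratio of the summed counts, replicate 2 over replicate 1, was 1.04 with a 95% exact binomial interval of 0.745 to 1.46. All intervals of ratios here cover counting error only, and reads without molecular identifiers are not independent molecules.

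A few genes held most of these counts. The 5 genes with at least 10 counts summed over the libraries, among them Hoxd1, Hoxc13, Hoxb2 and Hoxd8, held 76.2% of the Hox counts in replicate 2 and 66.0% in replicate 1. Counts were found in both libraries for 9 Hox genes, in replicate 2 only for 6 and in replicate 1 only for 4. The map of counts by cluster and paralogue group shows scattered small counts in groups 1 to 5, 7, 8 and 13. Group 6 held none, and groups 9 to 12 almost none.

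**Figure D1:**
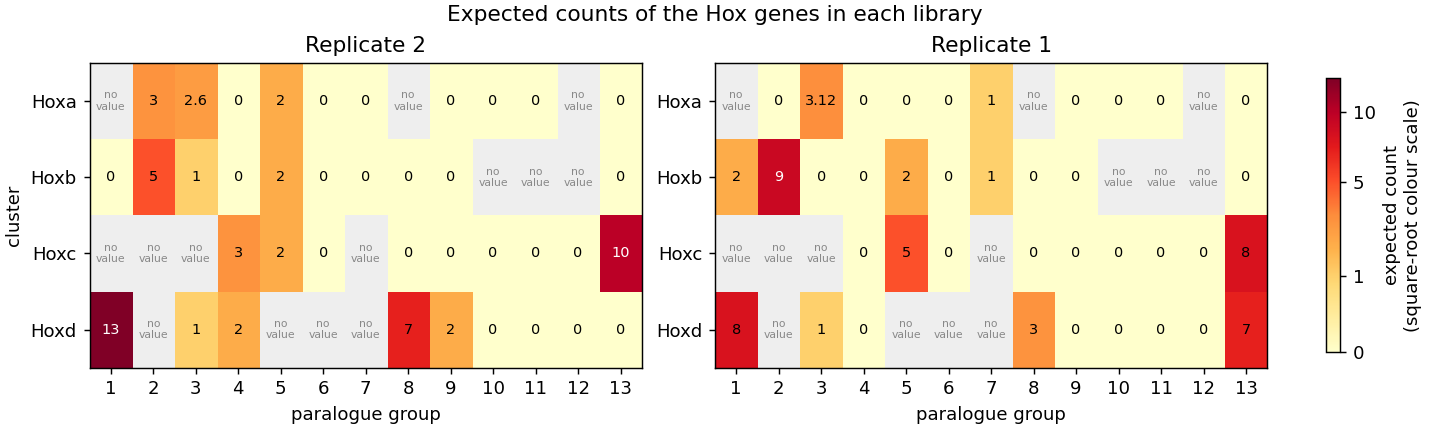
Expected counts of the Hox genes in replicate 2 and replicate 1, with the cluster down the page, the paralogue group from 1 to 13 across, and colour on a square-root scale, where grey cells have no gene or no value drawn. Among the cells shown, Hoxd1 has the highest count in replicate 2 (13) and Hoxb2 in replicate 1 (9), and groups 6, 10, 11 and 12 are at 0 throughout.

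The homeobox, the 180-base coding stretch for the DNA-binding homeodomain of 60 residues, is what these genes share. It is shown for Hoxc13, which had counts in both libraries, as an example of the stretch by which the family is known. The sequence runs 5′ to 3′ on the coding strand, from a GENCODE transcript, and capitals mark the codons of residues 48 to 53 in the recognition helix, which sits in the major groove of DNA. The stretch is coding exon sequence at chr15:102927210-102927389 on the plus strand in mm10.
Hoxc13: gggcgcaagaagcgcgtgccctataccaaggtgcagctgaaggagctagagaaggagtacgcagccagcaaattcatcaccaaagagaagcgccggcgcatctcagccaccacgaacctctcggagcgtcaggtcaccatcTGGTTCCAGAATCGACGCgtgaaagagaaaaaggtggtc

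A homeobox of this kind was found in 39 of 39 Hox genes, each within 1 exon. Over the 741 pairs of genes, identity of the bases lay between 46.1% and 93.9%, with a median of 61.1%. The 42 pairs of the same paralogue group had a median of 80.6%, against 60.6% for pairs of different groups. The longest run of identical bases in any pair was 52, between Hoxa6 and Hoxb4. No window of 100 bases of Hoxd1, Hoxc13, Hoxd8 or Hoxd13 transcripts stood in a transcript of another gene.

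Hoxd1 (ENSMUSG00000042448, at chr2:74762980-74765142), which acts in sensory neurons in the mouse, is a gene of group 1, whose activity begins earliest. It had 13 counts in replicate 2 and 8 in replicate 1, or 0.33 TPM in replicate 2, against 0.26 TPM in replicate 1. Its mean of 0.295 ± 0.0495 TPM (SD, n = 2) rested on deposited intervals of 0.177 to 0.532 TPM in replicate 2 and 0.111 to 0.465 TPM in replicate 1, which overlap. Hoxb1, the hindbrain gene of rhombomere 4, had 0 counts in replicate 2 and 2 in replicate 1.

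Across the family, 18 of the 23 member transcripts with counts hold the homeobox in their coding part. These 18 had 65.7 counts in replicate 2 and 62.68 in replicate 1. The other 5 transcripts include those of Hoxb2, Hoxb3, Hoxc5 and Hoxd3. The retained-intron transcript of Hoxb2 was at 14.35% of that gene in replicate 2 and 7.48% in replicate 1. The transcript that carried the single Hoxb3 count of replicate 2, which is 664 bases long, does not contain the homeobox in its exons.

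Groups 2 to 4 pattern the hindbrain and its neural crest, and their values were low as well. Hoxb2 (ENSMUSG00000075588), a gene of the hindbrain and its cranial motor neurons, had 5 counts in replicate 2 and 9 in replicate 1. Its level was 0.13 TPM in replicate 2, against 0.31 TPM in replicate 1, a mean of 0.220 ± 0.127 TPM (SD, n = 2). Exons of its antisense partner Hoxb3os cover 27.3% of its exon bases. With both strands searched, 24.5% of its 100-base windows also stand in transcripts of Hoxb3os. The sources used here do not state whether strand was used in counting, so reads of Hoxb2 and Hoxb3os cannot be told apart where they overlap.

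Hoxa2, which keeps the second branchial arch from taking the form of the first, had 3 counts in replicate 2 and 0 in replicate 1. Hoxa3, which acts in thymus and parathyroid formation, had 2.6 counts in replicate 2 and 3.12 in replicate 1. Hoxc4 had 3 counts and Hoxd4 had 2 in replicate 2, both with 0 in replicate 1. Hoxd3 had 1 count in each library and Hoxb3 had 1 count in replicate 2 and 0 in replicate 1. The levels of these 6 genes lay between 0 and 0.08 TPM. Hoxa4 and Hoxb4 were at 0 counts in both libraries.

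Several of these genes hold sequence that stands in other genes too, on the same or the opposite strand. With both strands searched, windows shared with other genes made up 57.9% of the windows of Hoxd3, 49.7% of Hoxb3, 41.1% of Hoxd4 and 20.7% of Hoxa3. For Hoxb3 the only such gene was Hoxb3os, on the opposite strand. Hoxd3 and Hoxd4 share windows with each other, as do Hoxc5 and Hoxc10. Of the 39 Hox genes, 25 had no shared window. Exons on the opposite strand overlapped 10 of the 39 genes, and exons of another gene on the same strand overlapped 9.

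Groups 5 to 8, genes of the neck and thorax, held little. Of these 11 genes, 6 had counts, with 13 counts in replicate 2 and 12 in replicate 1. Hoxd8 (ENSMUSG00000027102) had 7 counts in replicate 2 and 3 in replicate 1, or 0.12 TPM in replicate 2, against 0.07 TPM in replicate 1, with a mean of 0.0950 ± 0.0354 TPM (SD, n = 2). Hoxc5 had 2 counts in replicate 2 and 5 in replicate 1. Hoxb5, which acts in enteric neural crest, had 2 counts in each library, Hoxa5, a lung gene, had 2 in replicate 2 and 0 in replicate 1, and Hoxa7 and Hoxb7 each had 0 in replicate 2 and 1 in replicate 1. The 3 genes of group 6 were at 0 counts in both libraries, and so were Hoxb8 and Hoxc8.

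Groups 9 to 12, the genes of the lumbar and sacral trunk and of the limbs, were the emptiest stretch. Hoxd9 was the only one of these 12 genes with counts, at 2 in replicate 2 and 0 in replicate 1. Hoxa9, Hoxb9, Hoxc9 and the 8 genes of groups 10, 11 and 12 were at 0 counts in both libraries. Those 8 include Hoxc10, a gene of limb motor neurons, Hoxa11, which shapes the forearm and kidney, and Hoxd12.

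Group 13, which acts in the tail, digits and genital tubercle, again held counts. Hoxc13 (ENSMUSG00000001655, at chr15:102921103-102928814), a gene known for hair and nail formation, had 10 counts in replicate 2 and 8 in replicate 1. Its level was 0.19 TPM in both libraries, with deposited intervals of 0.0910 to 0.324 TPM in replicate 2 and 0.0853 to 0.347 TPM in replicate 1. Hoxd13 (ENSMUSG00000001819), a digit gene, had 0 counts in replicate 2 and 7 in replicate 1. Its deposited upper bound was 0.0543 TPM in replicate 2, and its level was 0.17 TPM in replicate 1, with an interval of 0.0682 to 0.314 TPM. These Hoxd13 intervals do not overlap. Hoxa13 and Hoxb13 were at 0 counts in both libraries.

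**Figure D2:**
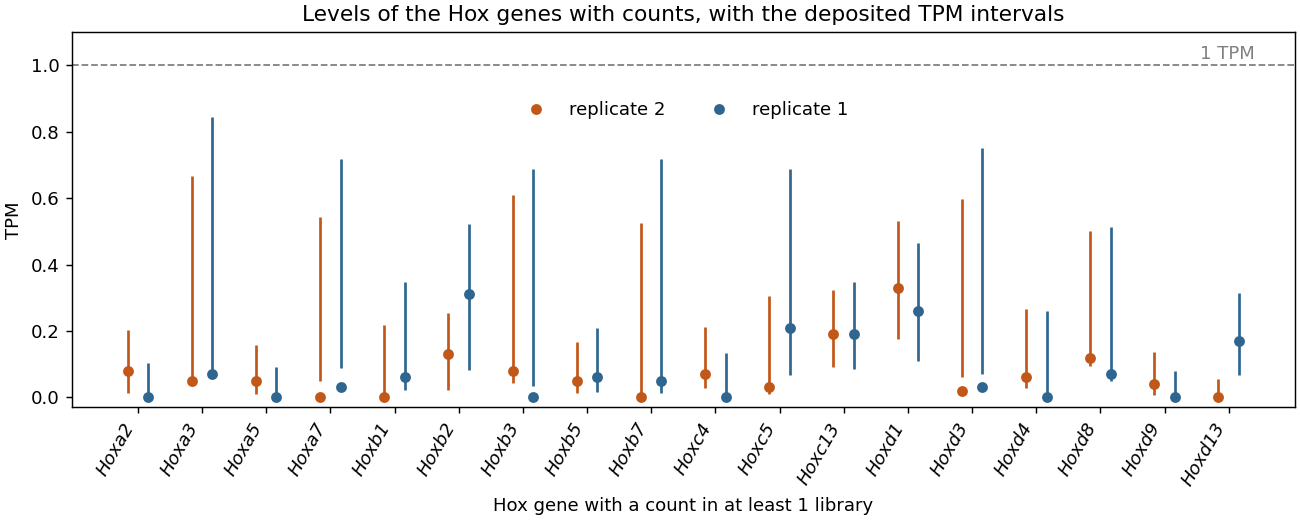
Deposited TPM (points) and deposited TPM interval (lines) of 18 Hox genes with a count in at least 1 library, for replicate 2 and replicate 1, on a linear axis with a dashed line at 1 TPM. All upper ends lie under the dashed line, at most 0.846 TPM, in replicate 1 for Hoxa3, and the lines of replicate 2 and replicate 1 do not overlap for Hoxd13.

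A count of 0 did not mean a level of 0. For the 20 Hox genes at 0 counts in both libraries, 3 counts would correspond to 0.0543 to 0.173 TPM in replicate 2 and to 0.0686 to 0.219 TPM in replicate 1, depending on transcript length. The deposited upper bounds of the same genes lay between 0.0524 and 0.590 TPM in replicate 2 and between 0.0652 and 0.745 TPM in replicate 1. Expression of these 20 genes below those levels is not excluded by the 0 counts. In the plot of levels some deposited intervals start above their own point, so an interval need not contain the deposited TPM.

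By position along the clusters, groups 1 to 4 had counts in 10 of 12 genes, groups 5 to 8 in 6 of 11 and groups 9 to 13 in 3 of 16. Groups 1 to 4 held 61.6 counts in replicate 2 and 38.12 in replicate 1, and groups 9 to 13 held 12 in replicate 2 and 15 in replicate 1. In levels, groups 1 to 4 summed to 1.31 ± 0.269 TPM (SD, n = 2) and groups 9 to 13 to 0.295 ± 0.0919 TPM (SD, n = 2). Both libraries gave groups 1 to 4 the higher sum, at 1.5 against 0.23 TPM in replicate 2 and 1.12 against 0.36 TPM in replicate 1. These sums are a description and were not tested.

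By cluster, Hoxa had the highest summed level, at 0.675 ± 0.262 TPM (SD, n = 2), with counts in 5 of 11 genes. Hoxd followed at 0.550 ± 0.0283 TPM with counts in 6 of 9 genes, then Hoxb at 0.370 ± 0.156 TPM with 5 of 10, and Hoxc at 0.345 ± 0.0778 TPM with 3 of 9. Hoxa was at 0.86 TPM in replicate 2, against 0.49 TPM in replicate 1, and Hoxd at 0.57 and 0.53 TPM in replicates 2 and 1, so the order of these 2 clusters differed between the libraries. Hoxb and Hoxc likewise changed places, with Hoxb at 0.26 and Hoxc at 0.29 TPM in replicate 2, and Hoxb at 0.48 and Hoxc at 0.40 TPM in replicate 1.

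Between the pools, no Hox gene passed the test for a difference. The 5 Hox genes with at least 10 summed counts were tested with a two-sided exact binomial test of rounded counts, adjusted by Benjamini-Hochberg over the 18939 genes tested. A call required both an adjusted p under 0.05 and a difference of at least 1.5-fold. Of these 5, 0 were called and 0 had an unadjusted p under 0.05, and 0 were called or had an unadjusted p under 0.05 in the negative binomial exact test of edgeR. Over all genes tested, 4.50% were called, 2.69% higher and 1.81% lower in replicate 2, and 1.41% were called by the negative binomial test. Among the 3447 genes tested with at most 50 summed counts, a range that holds these 5, the exact binomial test called 7.02%. The test compares these 2 libraries and not conditions.

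The ratios of the tested genes, replicate 2 over replicate 1, were wide. The ratio of Hoxd1 was 1.26, with a 95% exact interval of 0.485 to 3.51 (exact binomial test, adjusted p = 0.830). Hoxc13 was at 0.971, from 0.345 to 2.83, Hoxd8 at 1.81, from 0.414 to 10.9, and Hoxb2 at 0.432, from 0.114 to 1.43. The direction differed among these 4 genes, with Hoxd1 and Hoxd8 above 1 and Hoxb2 and Hoxc13 below 1.

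The call for Hoxd13 depended on the count minimum. With 7 summed counts it fell below the 10 required above, which the negative binomial test also required. When every gene with at least 1 count was tested, Hoxd13 was called lower in replicate 2 (exact binomial test, unadjusted p = 0.00305, adjusted p = 0.0224), as 1 of the 19 Hox genes with counts, where 3.47% of the 24513 genes tested were called. The upper bound of its ratio, replicate 2 over replicate 1, was 0.539.

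Other genes annotated within the cluster spans also had few counts. Of 45 such genes, 19 have an effective length under 100 bases and can hardly receive reads here. Of the 26 longer ones, 17 had 0 counts in both libraries, the 3 other protein-coding ones among them, and 9 had counts. A mean of at least 1 TPM was reached by 1 of the 45. That gene was Hotairm1, a noncoding RNA inside the Hoxa cluster. It had 23 counts in replicate 2 and 8 in replicate 1, or 3.40 TPM in replicate 2, against 1.70 TPM in replicate 1. These levels come from a short effective length, 302.3 bases in replicate 2 and 266.4 in replicate 1. Hoxd1, with 13 and 8 counts in replicates 2 and 1, has an effective length of 1763 bases. The ratio and interval that follow are those of Hotairm1. Its ratio was 2.23 with an interval of 0.965 to 5.78, and it was not called (exact binomial test, adjusted p = 0.149).

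The other noncoding genes of the clusters had few counts. Hoxaas2, antisense to Hoxa3, had 12.4 counts in replicate 2 and 4.88 in replicate 1 and was not called (exact binomial test, adjusted p = 0.552). The processed pseudogene Gm11539, inside Hoxb, had 8.25 counts in replicate 2 and 3.79 in replicate 1 (exact binomial test, adjusted p = 0.759). Haglr, which starts next to Hoxd1 on the opposite strand, had 4 counts in replicate 2 and 2 in replicate 1. Hoxb3os had 0 counts in replicate 2 and 2 in replicate 1, and Hoxd3os1 had 2 in replicate 2 and 1 in replicate 1. The 6 microRNA genes inside the spans belong to the 19 short ones, with effective lengths of at most 11 bases, and these libraries do not measure them.

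Most genes beyond the cluster borders were expressed. Of the 24 protein-coding genes that flank the 4 clusters, 3 on each side of each, 20 were at 1 TPM or more in both libraries and 18 at 10 TPM or more in both. Mtx2, a mitochondrial gene 60.7 kb from the group 1 end of Hoxd, was at 95.6 TPM in replicate 2, against 86.3 TPM in replicate 1. Lnpk, which shapes the endoplasmic reticulum and lies 88.9 kb beyond the other end, was at 49.96 TPM in replicate 2, against 47.88 TPM in replicate 1. Skap2, 143.0 kb beyond one end of Hoxa, was at 7.05 TPM in replicate 2, against 5.02 TPM in replicate 1, and Hibadh, 285.3 kb beyond the other end, at 53.2 TPM in replicate 2, against 50.8 TPM in replicate 1.

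Around Hoxc the 6 flanking genes, and around Hoxb 4 of 6, were at 1 TPM or more in both libraries. Atp5g1, a subunit of the mitochondrial ATP synthase 118.6 kb from Hoxb13, was at 299.1 TPM in replicate 2, against 294.8 TPM in replicate 1. Skap1, 96.3 kb from Hoxb1, was at 1.39 TPM in replicate 2, against 1.64 TPM in replicate 1. Smug1, a DNA repair gene 116.4 kb from the group 4 end of Hoxc, was at 20.6 TPM in replicate 2, against 20.9 TPM in replicate 1, and Calcoco1, 198.9 kb from the other end, at 33.5 TPM in replicate 2, against 33.3 TPM in replicate 1. The remaining flanking genes at 1 TPM or more in both libraries were Cbx3, Snx10, Tax1bp1, Snx11, Cbx1, Atf7, Atp5g2, Cbx5, Hnrnpa1, Atp5g3, Hnrnpa3 and Nfe2l2, at means of 15.04 to 991.3 TPM.

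The 4 flanking genes that were not at 1 TPM or more in both libraries included the homeobox neighbours of the clusters. Evx1, next to Hoxa13 at 52.6 kb, was at 0.66 TPM in replicate 2, against 0.65 TPM in replicate 1. Evx2, next to Hoxd13 at 8.8 kb, was at 1.16 TPM in replicate 2, against 0.95 TPM in replicate 1. Both are even-skipped genes of spinal cord interneurons, and Evx2 stood above each Hoxd gene in both libraries. Next to Hoxb13, Ttll6 was at 0 TPM in replicate 2, against 0.04 TPM in replicate 1, and Calcoco2 was at 0.05 TPM in replicate 2, against 0.07 TPM in replicate 1.

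**Figure D3:**
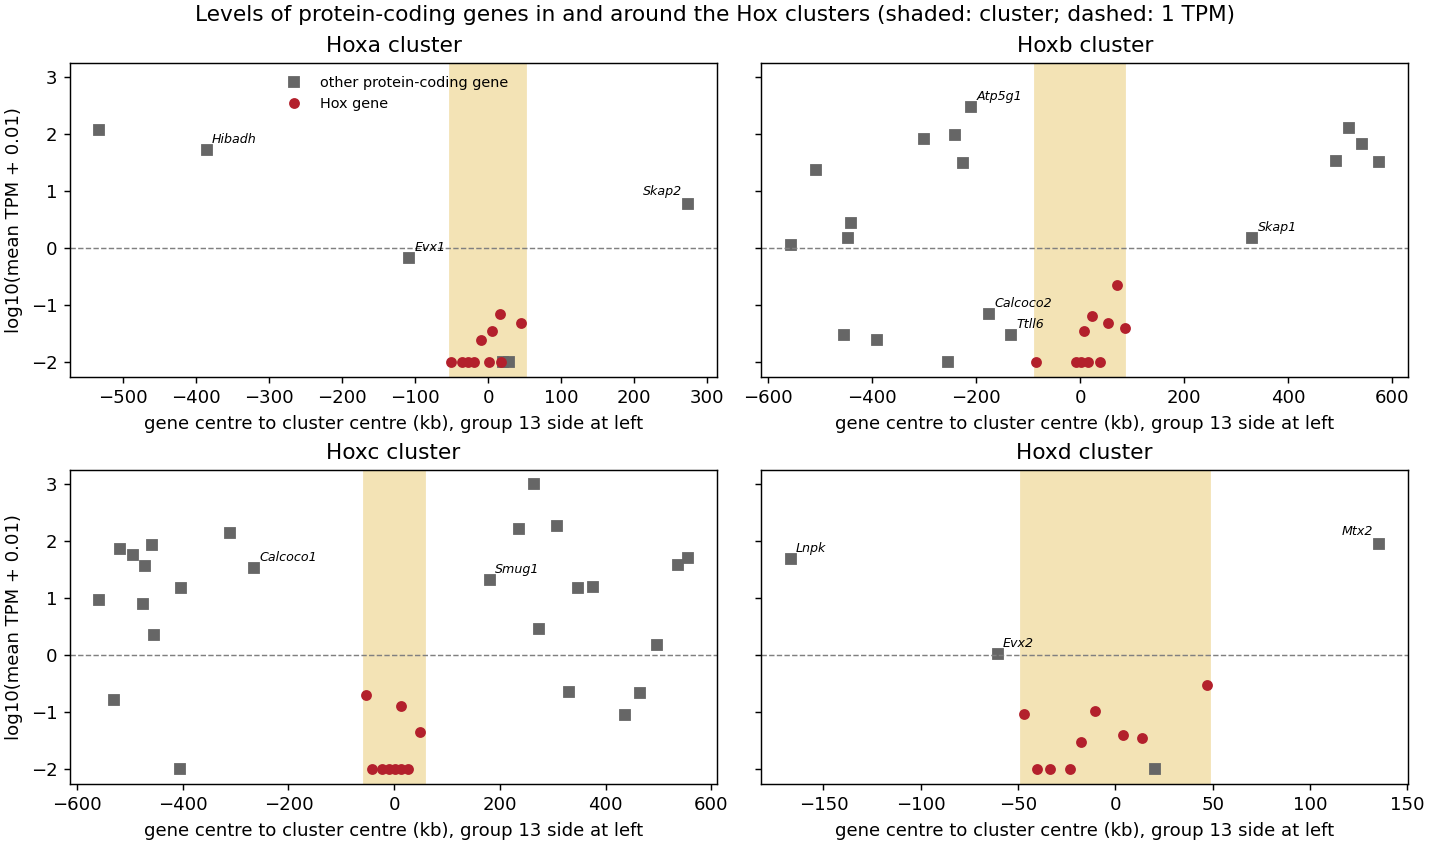
Mean TPM over the 2 libraries, as log10(TPM + 0.01), of 38 Hox genes and other protein-coding genes by distance of the gene centre from the cluster centre in kb, with the group 13 side at the left, the cluster shaded and a dashed line at 1 TPM. The Hox points lie under the line in all 4 clusters, while Lnpk (48.9 TPM) and Mtx2 (90.95 TPM) stand on either side of Hoxd and Hibadh (52.0 TPM) and Skap2 (6.04 TPM) on either side of Hoxa.

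Sequence before the start of transcription was looked at because silent Hox promoters are known for dense CG dinucleotides, the setting in which Polycomb acts. The 250 bases upstream of Hoxd1, with counts in both libraries, and of Hoxd13, with counts in replicate 1 only, are printed from RefSeq on GRCm38.p6, 5′ to 3′ on the plus strand, with each CG in capitals. The Hoxd1 window is at chr2:74762730-74762979 and the Hoxd13 window at chr2:74667975-74668224, both upstream of the first exon.
Hoxd1: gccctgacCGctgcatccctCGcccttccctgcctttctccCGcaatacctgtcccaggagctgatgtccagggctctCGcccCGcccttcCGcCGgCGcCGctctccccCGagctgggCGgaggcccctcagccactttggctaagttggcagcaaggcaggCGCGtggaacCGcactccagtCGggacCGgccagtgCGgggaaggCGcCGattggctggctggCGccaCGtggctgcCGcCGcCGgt
Hoxd13: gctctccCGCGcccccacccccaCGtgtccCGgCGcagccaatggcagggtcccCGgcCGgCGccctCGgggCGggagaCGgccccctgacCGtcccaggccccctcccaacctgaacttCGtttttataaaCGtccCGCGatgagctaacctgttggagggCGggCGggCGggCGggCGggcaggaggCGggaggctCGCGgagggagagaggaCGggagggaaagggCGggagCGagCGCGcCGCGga

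These windows held 24 CG for Hoxd1 and 31 for Hoxd13. RefSeq gave 24 windows for 22 of the Hox genes, which held a median of 12.5 CG and between 2 and 35, beside a median of 6 over all 32851 windows. More than 16 CG were found in 9 of the 24 Hox windows (37.5%) and in 23.5% of all windows. The windows of genes with counts had a median of 10 CG and those of genes without counts 13.5 CG. The letters TGATNNAT, a site form of Hox and Pbx pairs, were searched on both strands and stood in 4 of the 24 Hox windows (16.7%) and in 7.68% of all windows.

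Genes whose proteins work with Hox proteins were all present. These are the TALE homeodomain genes of the Meis, Pbx and Pknox families, whose products bind DNA beside Hox proteins. In both libraries 9 of 9 were at 1 TPM or more. Between the libraries 0 of 9 were called, where 4.50% of all genes tested were called. Meis3 was at 105.0 TPM in replicate 2, against 98.6 TPM in replicate 1, Meis2 at 75.98 and 61.1 TPM and Pbx3 at 65.2 and 61.5 TPM in replicates 2 and 1. The lowest of the 9, Pbx2, was at 17.2 TPM in replicate 2, against 18.1 TPM in replicate 1. Each of these levels was above that of every Hox gene.

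The machinery that keeps Hox clusters silent, and the trithorax group that keeps them open, was expressed as well. Of 20 Polycomb and trithorax genes, 20 were at 1 TPM or more in both libraries. Between the libraries 0 of the 20 were called, where 4.50% of all genes tested were called. Ezh2, the histone methyltransferase of the repressive mark H3K27me3, was at 145.3 TPM in replicate 2, against 150.5 TPM in replicate 1. Phc2, a Polycomb subunit, was at 108.5 TPM in replicate 2, against 122.0 TPM in replicate 1, Rnf2, a ubiquitin ligase of Polycomb, at 109.2 and 105.7 TPM and the trithorax subunit Ash2l at 110.0 and 112.6 TPM in replicates 2 and 1. The list's lowest member was Cbx7, at 3.44 TPM in replicate 2, against 4.41 TPM in replicate 1.

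Genes that act upstream of Hox genes were mixed. Of 14, 7 were at 1 TPM or more in both libraries, and Cdx1, Cdx2, Cdx4 and Cyp26c1 were at 0 counts in both. Egr2, which switches on Hox genes in rhombomeres 3 and 5, was at 0.21 TPM in replicate 2, against 0.20 TPM in replicate 1. The highest 4 were the retinoic acid receptors Rara, at 14.2 and 12.5 TPM, Rarg, at 15.8 and 10.7 TPM, and Rarb, at 14.6 and 10.4 TPM, and the signal Gdf11, at 8.90 and 9.66 TPM, in replicates 2 and 1. Of the 9 tested, 3 were called, and all 3 were higher in replicate 2, where 2.69% of all genes tested were called higher. These were Rarg, at a ratio of 1.62 (exact binomial test, adjusted p = 2.73e-15), Cyp26b1, which breaks down retinoic acid, at 1.81 (exact binomial test, adjusted p = 2.02e-25), and Aldh1a2, which makes it, at 1.55 (exact binomial test, adjusted p = 0.0150). The negative binomial exact test of edgeR kept the call of Cyp26b1 (adjusted p = 0.00547) but not those of Rarg (adjusted p = 0.0618) and Aldh1a2 (adjusted p = 0.551). Its allowance for spread beyond counting error was estimated from these same 2 libraries, so it is not an independent check.

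Of the other homeobox genes related to the Hox clusters, 6 of 9 were under 1 TPM in both libraries, beside 37.6% of all protein-coding genes. Among 9 ParaHox and Hox-linked genes, Gsx1, of neural progenitors, was at 22.8 TPM in replicate 2, against 21.6 TPM in replicate 1, and Gsx2 at 3.02 TPM in replicate 2, against 2.88 TPM in replicate 1. They were the 2 members at 1 TPM or more in both libraries. Evx2 and Evx1, described above as flanking genes, were low but not silent. Evx2 had 106 counts in replicate 2 and 69 in replicate 1, and Evx1 had 40 and 32. Pdx1, Cdx1, Cdx2 and Cdx4 were at 0 counts in both, and Mnx1 was at 0 TPM in replicate 2, against 0.06 TPM in replicate 1. The Cdx genes also stand in the list of upstream genes. Of the 4 tested, 0 were called, where 4.50% of all genes tested were called.

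Markers of hindbrain and spinal cord were measured beside the Hox genes. Whether the cells with these markers carry Hox RNA was not tested. Of 9 hindbrain and spinal cord genes outside the clusters, 1 was at 1 TPM or more in both libraries, and the list summed to 12.45 TPM in replicate 2, against 9.11 TPM in replicate 1. Of its 6 tested members, 3 were called, all higher in replicate 2, where 2.69% of all genes tested were called higher. They included Atoh1, a gene of rhombic lip and dorsal progenitors, at 2.20 TPM in replicate 2, against 0.74 TPM in replicate 1 (exact binomial test, ratio 2.93, adjusted p = 2.87e-06) and Ptf1a, of GABAergic and cerebellar progenitors, at 1.46 and 0.36 TPM (exact binomial test, ratio 3.97, adjusted p = 3.21e-04) in replicates 2 and 1. In the negative binomial exact test Atoh1 (adjusted p = 0.00289) and Ptf1a (adjusted p = 0.0178) were also called, beside 1.41% of all genes tested. The defining spinal markers Mnx1, Lhx3 and Lbx1 were between 0 and 0.11 TPM in both libraries. The part of such tissue in the Hox counts was not tested.

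Mesenchyme genes, which mark meninges and other connective tissue, were abundant, with 8 of 8 at 1 TPM or more in both libraries. They summed to 1565 TPM in replicate 2, against 1105 TPM in replicate 1, led by the collagen genes Col3a1 at 568.6 and 398.8 TPM, Col1a1 at 469.2 and 326.2 TPM and Col1a2 at 286.2 and 207.6 TPM, and by Lum at 148.9 and 105.3 TPM, in replicates 2 and 1. None of the 8 reached the 1.5-fold ratio, and their ratios lay between 1.12 and 1.44, all higher in replicate 2. Twist1 had an adjusted p of 0.379 (exact binomial test). The others had an adjusted p of at most 8.00e-07 (exact binomial test), so only the ratio kept them from being called. Of 5 blood progenitor genes, 5 were at 1 TPM or more in both libraries, with a sum of 53.96 TPM in replicate 2, against 55.2 TPM in replicate 1. Cd34 was at 30.2 and 32.5 TPM, Kit at 14.4 and 16.1 TPM and Myb at 5.19 and 4.31 TPM in replicates 2 and 1. Runx1, at 2.84 TPM in replicate 2, against 1.06 TPM in replicate 1, was the 1 of 5 called (exact binomial test, ratio 2.45, adjusted p = 3.08e-13). Of all genes tested, 2.69% were called higher in replicate 2. The negative binomial exact test also called Runx1 (adjusted p = 1.52e-04), beside 1.41% of all genes tested. Of 7 limb and trunk mesoderm genes, Osr1 and Pitx1 were at 1 TPM or more in both libraries. The other 5, Tbx4, Tbx5, Hand2, Tcf21 and Wt1, lay between 0 and 0.20 TPM. The part of these tissues in the Hox counts was not tested. Of the 9 midbrain and isthmus markers, Cnpy1 was called higher in replicate 2 (exact binomial test, ratio 1.52) and Fgf8 lower (exact binomial test, ratio 0.625). Over all genes tested, 2.69% were called higher and 1.81% lower in replicate 2. Neither Cnpy1 nor Fgf8 was called by the negative binomial exact test.

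**Figure D4:**
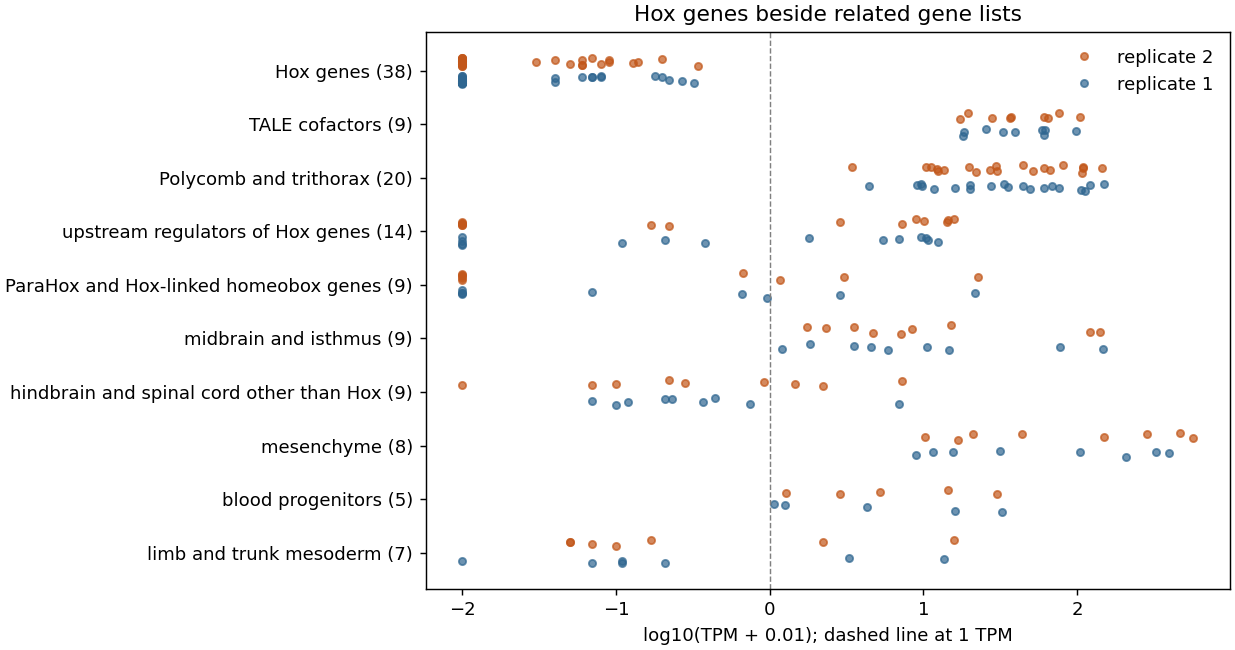
Levels of 38 Hox genes and of 9 related gene lists, as log10(TPM + 0.01), with 1 point per gene for replicate 2 above and replicate 1 below in each row and a dashed line at 1 TPM. Every Hox point lies left of the line, while the 9 TALE and 20 Polycomb and trithorax genes lie right of it in both libraries.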

How the data were processed

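Estimated counts per gene and transcript, which need not be whole, were deposited by the authors, per the file headers, beside TPM (estimated counts per effective length, scaled to the library) and posterior values. The deposited isoform percent is a transcript's share of its gene, per the file headers. The deposited bounds of the TPM interval are further columns of the same files. The annotation was GENCODE M4 on mm10, per the file records, while neither the aligner nor the use of strand is given in the sources used here. Per the labels, RNA was extracted with mirVana, and a manual of a SMARTer Ultra Low kit, which reverse transcribes from the poly(A) tail, is linked. GENCODE M21, also on mm10, supplied gene classes, coordinates and names, and it named 42462 of the 43346 gene identifiers. Spike-ins and short numbered features stayed out of library sizes and tests. Effective length was annotated length minus 99.

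Before testing, expected counts were rounded to integers. TMM factors and the negative binomial alternative came from edgeR 4.0.16 and size factors from DESeq2 1.42.0 (R 4.3.3). The common dispersion of the negative binomial test was estimated from the same 2 libraries taken as 1 group. The difference tested therefore also enters the spread it allows for. The two-sided exact binomial test took genes with at least 10 summed counts, with Benjamini-Hochberg adjustment, and was tested on simulated data. The simulation held counting error only and changed only genes with more summed counts than any Hox gene. It therefore does not show how the test performs on the Hox genes or under the spread between these pools. The libraries are separate pools, so a p-value measures the difference of these libraries beyond counting error. The floor was 3 counts per library.

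Every Hox gene is counted, and by rule those with at least 10 summed counts are described singly. Of noncoding genes inside the clusters the rule named those at 1 TPM or more on average, of flanking genes the nearest 3 on each side, and within a list the 4 most abundant members by mean TPM. Some genes under this rule are not reported here singly, but the sums and counts include them. Further names were picked with their values in view. The members and the 9 lists were chosen with earlier results of these data known. Homeoboxes were located in the reading frame of M21 transcripts by the codons of the recognition helix. Python 3.11.15, numpy 2.4.6, pandas 2.3.3, scipy 1.17.1 and matplotlib 3.10.9 were used.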

Additional observations from a re-analysis of the deposited data

How the results depend on the processing

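No Hox gene was detected at 1 TPM, nor at 0.5 TPM, with posterior mean TPM, with TPM rescaled over nuclear protein-coding genes or in either library alone, and 4 Hox genes were at 0.1 TPM or more in both libraries. The summed Hox level of 1.94 TPM was 5.89 TPM with posterior mean TPM, 2.45 TPM after rescaling and 2.35 in TMM-scaled CPM, and 1.90 to 1.98 TPM with 1 library left out. With posterior mean TPM 31 of the 39 single levels were higher by more than 1 SD, the highest in either library being 0.7 TPM. The summed ratio of 1.04 stayed between 1.039 and 1.047 under DESeq2 size factors, total counts and deposited TPM. The count of called Hox genes was 0 under DESeq2 size factors, total counts, a TPM minimum and the negative binomial test, and 1, Hoxd13, with no count minimum, where more genes are tested. Over all genes, 852 were called, against 541 with a mean TPM of at least 1 and 267 by the negative binomial test. The latter, with a spread estimated from the same 2 libraries, kept 4 of the 9 calls among list genes. No paired analysis was possible because the 2 libraries form 1 group. With 2 libraries and 86.6 or 65.12 Hox counts, depth limits each ratio.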
